A study of Mus musculus with 122 samples.

Results

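The lost unbound regions described here are stretches of chromatin that were open in cultured mouse alveolar macrophages and were no longer called open after Cebpb had been deleted, and that carried no peak of the C/EBPβ protein in freshly isolated cells. They were found by merging the peaks of 5 ATAC-seq lists wherever peaks shared at least 1 bp, which gave 129652 regions. A region was kept if it had a peak in both control lists, in none of the 3 knockout lists and in neither of the 2 C/EBPβ ChIP lists. Of 67034 regions with a peak in both controls, 45570 had no C/EBPβ peak, and 3443 of these had no peak in any knockout list. The regions were chosen by the presence or absence of a peak in these 7 lists, so peak presence and peak strength are given below as descriptions, without a test.

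ATAC-seq cuts accessible DNA with a transposase, so that a peak marks open chromatin. The series compares mouse alveolar macrophages with changed Cebpb against their controls, and 5 ATAC cultures, 2 ChIP samples and 29 RNA libraries of its 122 samples were used. Both kinds of culture were adult alveolar macrophages washed from the lungs, expanded for 7 days in 20 ng/ml CSF2 and then given mouse IFNα at 1000 units/ml. Controls (n = 2) were MxCre+ cells of the strain Tg(Mx1-cre)1Cgn/J, and knockouts (n = 3) were MxCre+ Cebpb flox/flox cells from a cross of Cebpbtm1.1Elgaz/J with that strain, both on C57BL/6. The Mx1 promoter that drives Cre responds to interferon, so both groups shared the Cre transgene and the IFNα, and only the knockouts carried floxed alleles. The ChIP samples were adult wildtype C57BL/6 macrophages taken straight from lavage, with neither culture nor IFNα. A region called unbound therefore had no peak in fresh cells, and binding in the cultures was not analysed here.

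RNA was counted in 5 knockout and control pairs of adult mice, none of them from the ATAC cultures. The chromatin-matched pair, named for the label that its RNA went with an ATAC experiment on fresh cells, was Cebpb -/- against Cebpb +/+ (n = 3 each; strain C/EBPb tm1Pfj, mixed background). A further set of that strain held Cebpb -/- macrophages sorted as CD11b low (n = 4) and as CD11b high (n = 4), compared with the same 4 Cebpb +/+ libraries. The CD11cCre set compared CD11c +/Cre Cebpb flox/flox (n = 4) with CD11c +/Cre (n = 3), where the Itgax promoter drives Cre. The LyzMCre set compared LyzM Cre/Cre Cebpb flox/flox (n = 2) with Cebpb flox/flox (n = 2), whose label names no Cre. Both Cre sets were on C57BL/6. The labels do not name the animals behind the libraries, so p-values measure only the spread between these samples, which may be technical.

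C/EBPβ is a basic leucine zipper transcription factor of the myeloid lineage that binds DNA as a dimer and opens or maintains regulatory regions together with factors such as PU.1 and AP-1. In alveolar macrophages, which clear surfactant from the airspaces, it acts beside PPARγ in a programme set by GM-CSF (the product of Csf2). When such a factor is removed, sites it binds can close directly, and other sites can change through the regulators and cell states that depend on it.

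Promoter sequences were at hand for 101 windows that overlapped a lost unbound region (91 genes, 85 regions). Each window runs from 250 bases before to 50 bases after a RefSeq gene start (assembly GRCm38.p6). The stretches below are the parts of 8 such windows that lay inside the lost region, cut 30 bases past the start. They were chosen after the values were seen, because they belong to the targeted gene, to the strongest region at a start, to genes whose RNA is described below or to windows with a motif, and the capitals mark motif matches on either strand. Cebpb lies at its own lost region, 167688898-167688944 of chromosome 2, plus strand.
Cebpb: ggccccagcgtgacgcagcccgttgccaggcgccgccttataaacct
Camp, which encodes the cathelicidin antimicrobial peptide of neutrophils, had the strongest lost region at a gene start (chr9:109849427-109849706, minus strand) and no match to the motifs searched.
Camp: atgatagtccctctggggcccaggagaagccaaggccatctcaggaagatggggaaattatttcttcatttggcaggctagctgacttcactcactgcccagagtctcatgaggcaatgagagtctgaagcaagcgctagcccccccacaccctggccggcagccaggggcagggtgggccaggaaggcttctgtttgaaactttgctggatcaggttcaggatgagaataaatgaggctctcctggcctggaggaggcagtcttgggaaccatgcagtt
Il23r, the receptor for interleukin 23, has a C/EBP match in capitals (chr6:67491826-67492105, minus strand).
Il23r: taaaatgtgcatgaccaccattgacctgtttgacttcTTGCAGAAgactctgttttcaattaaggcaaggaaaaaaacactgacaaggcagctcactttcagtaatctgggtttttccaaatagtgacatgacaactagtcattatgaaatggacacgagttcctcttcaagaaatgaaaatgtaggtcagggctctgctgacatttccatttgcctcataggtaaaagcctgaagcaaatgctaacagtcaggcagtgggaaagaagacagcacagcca
Dio2, which activates thyroid hormone, has a cyclic AMP response element and a C/EBP match (chr12:90739009-90739165, minus strand).
Dio2: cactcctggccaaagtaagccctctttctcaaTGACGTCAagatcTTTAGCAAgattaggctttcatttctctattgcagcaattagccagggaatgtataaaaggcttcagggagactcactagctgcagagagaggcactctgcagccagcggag
Lamp1, a major lysosomal membrane protein, holds 4 E-boxes (chr8:13159079-13159190, plus strand).
Lamp1: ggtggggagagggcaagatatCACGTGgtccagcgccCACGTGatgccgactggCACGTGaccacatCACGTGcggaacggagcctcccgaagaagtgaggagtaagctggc
Irf5, a regulator of inflammatory macrophage genes (chr6:29526612-29526654, plus strand), Pmp22, a myelin membrane protein (chr11:63132764-63132832, plus strand), and Cd9, a tetraspanin (chr6:125494731-125494857, minus strand), held none of the motifs in the stretch shown.
Irf5: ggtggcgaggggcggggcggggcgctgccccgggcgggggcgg
Pmp22: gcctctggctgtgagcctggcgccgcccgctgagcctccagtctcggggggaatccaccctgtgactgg
Cd9: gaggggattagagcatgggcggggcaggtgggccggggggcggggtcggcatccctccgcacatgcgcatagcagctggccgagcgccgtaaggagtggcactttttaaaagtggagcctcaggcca

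Across these 101 windows, the C/EBP motif TTGCNNAA, read on both strands, was found in 17 (16.8%). It was found in 5.65% of 6705 windows that overlapped an unbound region kept open in all 3 knockouts, in 29.7% of 37 windows that overlapped a C/EBPβ-bound lost region, and in 10.8% of all 32851 windows. So the windows at lost unbound regions held the motif more often than those at kept unbound regions and less often than those at bound lost regions, as counts without a test. Several windows share bases, 4 of the 17 being starts of 1 predicted gene. The AP-1 motif TGANTCA was in 11.9% of the windows at lost unbound regions, 5.18% of those at kept unbound regions and 7.81% of all windows. The PU.1 motif GAGGAAGT was in 5.94%, 3.65% and 3.2% of the same windows, in that order. The cyclic AMP response element TGACGTCA was in 2.97%, 3.48% and 1.79%, and the E-box CACGTG, a motif added after the sequences were seen, in 7.92%, 10.1% and 7.15%. The direct repeat read by PPAR-RXR dimers, AGGTCA written 2 times with 1 base between, was in 0 of the 101 windows and in 13 of all windows. In the 20403 windows with no control region the C/EBP motif was in 12.2%, AP-1 in 9.17% and PU.1 in 2.95%. The cyclic AMP element was in 0.838% of them and the E-box in 4.98%. The median count of CpG pairs was 17 at lost unbound, 21 at kept unbound, 4 with no control region and 7 over all windows. Median GC was 61% at both lost and kept unbound windows, 48.67% with no control region and 52.67% over all. The part of base composition in the motif shares was not tested.

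The share of unbound control regions that were lost, 7.56%, stood beside 7.07% of the 21464 C/EBPβ-bound control regions (1517 lost) and 7.4% of all control regions. Among unbound control regions, 2692 had a peak in 1 knockout list, 4665 in 2 and 34770 in all 3. The 2692 regions just outside the rule had a knockout peak with a median −log10 q of 5.446, the caller's measure of confidence, from 1.362 to 18.44. Their single peak was in knockout culture 1 for 1430 regions, in culture 2 for 721 and in culture 3 for 541. The knockout lists differed in size, with 101952, 90597 and 88282 peaks in the same order. Just inside the rule, the 5 regions nearest to the calling limit had a control peak with a −log10 q of 1.793 (upstream of Gm20110), 1.872 (at Fry), 1.928 (in Pag1), 2.077 (downstream of Klf2) and 2.153 (in Arid1b), where ATAC lists began between 1.338 and 1.423. A peak missing from a list can lie just under that limit, and a read depth for the cultures was not used here. Without control culture 1 the same rule gave 9954 regions, and without control culture 2 it gave 7322, since 1 list then stood for the controls. The list of control 1 held 81880 peaks and that of control 2 held 92432.

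Lost unbound regions were weak among open regions and narrow once merged, as were unbound regions with a peak in only 1 or 2 knockouts. Their median width was 331 bp (200 to 830), against 577 bp for unbound regions kept in all 3 knockouts. Peak strength was ranked as the percentile of −log10 q within each list: their median was 31.7 in control 1 and 30.7 in control 2, against 58.8 and 61.3 for kept unbound regions. The 7357 unbound regions kept in 1 or 2 knockouts had median percentiles of 30.5 and 33.9 and a median width of 386 bp. A merged region spans the peaks of every list that has one there. Kept regions thus take in knockout peaks and lost regions do not, which by itself widens the kept ones. Widths of the control peaks alone were not compared. In 386 of the 3443 both percentiles reached 50, in 29 they reached 80 and in 7 they reached 90. Across the 3443 regions the percentiles of the 2 controls had a Spearman rho of 0.43, against 0.69 across the kept unbound regions, a description over regions that come from the same 2 libraries.

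The share lost fell with strength whether or not C/EBPβ was bound. By the lower of the 2 control percentiles, in steps of 10 from the weakest, the share of unbound regions lost was 17%, 13.5%, 10.9%, 8.73%, 6.63%, 3.97%, 2.47%, 1.35%, 0.664% and 0.326%. The share of bound regions lost in the same steps was 25.2%, 24.0%, 19.6%, 15.4%, 10.6%, 7.34%, 4.53%, 2.73%, 1.24% and 0.377%. At equal strength, the unbound share was thus below the bound share in each of the 10 steps, while the shares over all strengths were close (7.56% and 7.07%).

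**Figure D1:**
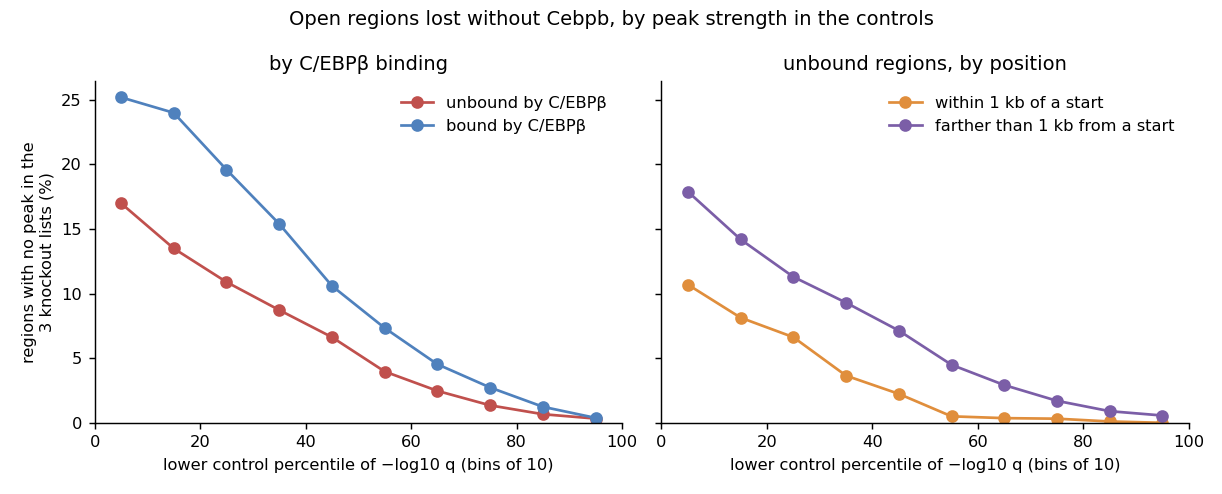
Percent of control regions with no peak in the 3 knockout lists (y axis) against the lower of the 2 control percentiles of −log10 q in bins of 10 (x axis), for unbound and C/EBPβ-bound regions (left) and for unbound regions within or beyond 1 kb of a gene start (right). Points are pooled regions of 5 cultures, with no error bars. The unbound line falls from 17% to 0.326% and lies below the bound line in every bin, and regions near starts lie below those farther away.

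Few lost unbound regions lay at gene starts. Of the 3311 on chromosomes with start data, 195 (5.89%) were within 1 kb of a RefSeq start, against 18.8% of unbound regions kept in all 3 knockouts, 11.5% of those kept in 1 or 2 and 6.53% of bound lost regions. Their median distance to a start was 24750 bp, against 15240 bp for kept unbound regions, and 29.3% were more than 50 kb away. Among unbound control regions the share lost was 2.66% within 1 kb of a start, 7.27% at 1 to 10 kb, 8.25% at 10 to 50 kb and 10.1% beyond 50 kb. Strength differed with position, so the same was read within strength steps: in the weakest step 10.7% were lost within 1 kb of a start and 17.9% farther away, and in the sixth step 0.5% and 4.49%. The share near starts was lower in each of the 10 steps, with 0 of 836 in the strongest. A coding or long noncoding gene covered 2058 of the regions (59.8%).

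**Figure D2:**
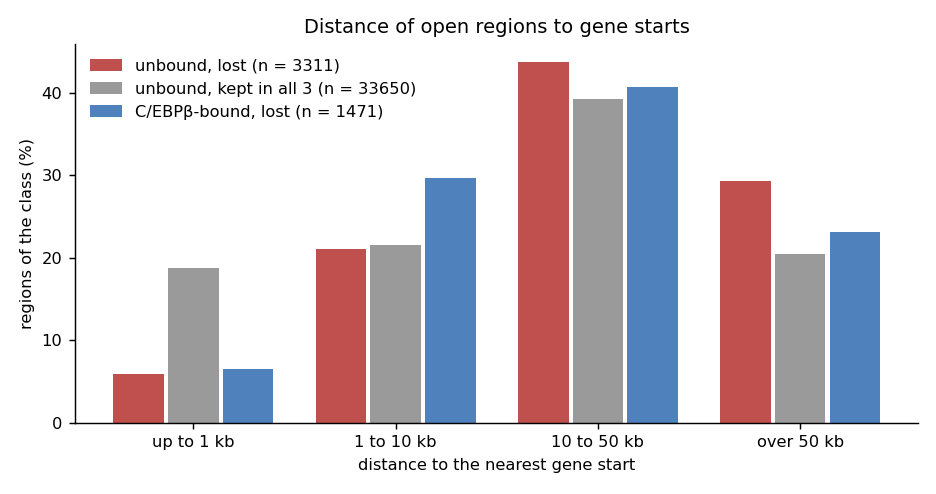
Percent of regions (y axis, from 0) in 4 ranges of distance to the nearest gene start (x axis), for lost unbound, kept unbound and C/EBPβ-bound lost regions. The bars at up to 1 kb are 5.89%, 18.8% and 6.53%.

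Distance from C/EBPβ peaks was not used by the rule beyond their overlap. The median gap from a lost unbound region to the nearest C/EBPβ peak was 24030 bp; 1007 (29.2%) had one within 10 kb and 96 within 500 bp. Among unbound control regions, the share lost was 5.88% where a C/EBPβ peak lay within 500 bp, 5.62% at 500 to 2000 bp, 6.87% at 2000 to 10000 bp, 7.34% at 10000 to 50000 bp and 9.26% farther away. Among unbound regions the share lost was thus no higher near C/EBPβ peaks than far from them. Strength differed with this distance: the median lower control percentile was 38.5 beyond 50000 bp and 41.3 to 43.9 nearer. Shares at equal strength were not compared by distance. Open neighbours mostly stayed, as they did beside kept regions: 2196 lost unbound regions (63.8%) had another control region within 10 kb, and that neighbour was kept in all 3 knockouts for 75.5% and itself lost for 10.2%. For kept unbound regions with such a neighbour, 77.2% of neighbours were kept in all 3 and 7.21% were lost.

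Lost unbound regions were spread over the genome. Their share of unbound control regions was between 6.42% (chromosome 4) and 9.38% (chromosome X) over the assembled chromosomes other than Y, where none of 11 was lost, and the median over 477 windows of 5 Mb was 7.69%. The highest windows were the first 5 Mb of chromosome 15, with 12 of 31 unbound control regions lost (38.7%), and 3 others at 25.0% to 30.4% with 23 to 33 regions each. Chains of 3 with gaps of at most 10 kb numbered 5, and pairs 127. Of the chains, 1 lay at Nbas, a factor of Golgi-to-ER transport (chr12:13598751-13607838), and 1 at Pate4 and Pate2, genes of small secreted proteins (chr9:35607548-35614345). In both chains all 3 open control regions of the stretch were lost.

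The strongest lost unbound regions were mostly far from starts. The first, chr9:87067878-87068518 inside Cyb5r4, a cytochrome b5 reductase, had a fold over local background of 12.72 in control 1 and 15.6 in control 2, with −log10 q of 33.55 and 61.68. The region in Tmtc1, an ER mannosyltransferase (chr6:148381065-148381821), had the highest −log10 q in control 2, 71.72, against 27.86 in control 1. That at Camp (chr9:109849308-109849888) had folds of 12.24 and 13.54 and percentiles of 91.05 and 88.82, and lay 64247 bp from the nearest C/EBPβ peak. These 3, picked for their strength, were well above the median percentiles of the class in both cultures. Others of the 20 strongest lay in Birc6, an inhibitor of apoptosis, in Ubr4, a ubiquitin ligase, 7675 bp upstream of the start of Stim1, the ER calcium sensor, and 34113 bp downstream of the start of Ephx1, the microsomal epoxide hydrolase. All 20, ranked by the lower of their control percentiles, had both above 80. Like every lost region they had, by the rule, no peak in any of the 3 knockout lists.

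The targeted gene held 2 of the regions. Cebpb is a gene with a single exon at chr2:167688915-167690432, and the region at its start (chr2:167688898-167689305) had folds of 3.431 and 2.738 in the controls and lay 124 bp from a C/EBPβ peak. The other lay at chr2:167694143-167694447, downstream of the gene, with folds of 2.717 and 2.616. Between them, 167692005-167692622 was open in all 3 knockouts and in no control. How far the floxed deletion reaches was not given here, and at the gene itself lost DNA and closed DNA cannot be told apart. Cebpb RNA was 421.7, 528.8 and 507.5 CPM (counts scaled to library size) in the chromatin-matched controls and 9.61, 13.36 and 31.64 CPM in the knockouts. The groups did not overlap, and the log2 fold change was −4.73 ± 0.43 (SE, n = 3 each; edgeR quasi-likelihood adjusted p = 0.000107). It was −3.45 in the CD11cCre, −2.95 in the LyzMCre, −4.46 in the CD11b low and −4.40 in the CD11b high comparison, each passing the test.

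Libraries of the chromatin-matched pair held 3805474 to 5362070 counts, those of the CD11cCre set 2255774 to 5932246, of the LyzMCre set 909515 to 4659853 and of the CD11b sets 642269 to 2088063. Cell type markers differed between groups in the chromatin-matched pair. The summed CPM of 26 alveolar macrophage identity genes, none at 0, was 19290 to 21300 in controls and 3089 to 3537 in knockouts, with 19 genes lower and 2 higher. That of 21 monocyte and tissue macrophage markers was 1115 to 1412 in controls and 8054 to 14800 in knockouts (10 of 17 tested higher, 2 lower). Neutrophil markers summed to 47.9 to 59.5 and 207 to 498 (5 of 5 tested higher, Elane at 0), lymphocyte markers to 6.46 to 14.9 and 98.8 to 258 (Cd79a among those at 0), and dendritic cell markers to 0.734 to 2.945 and 9.0 to 28.0 (Xcr1 at 0). Epithelial markers summed to 32.1 to 75.7 and 9.26 to 20.9, and stromal markers to 3.23 to 6.42 and 14.2 to 43.1. Marker sums also differed in the other comparisons. Identity genes summed to 51480 to 54560 in controls and 21560 to 29330 in knockouts of the CD11cCre set, 32130 to 34680 and 12070 to 17320 in LyzMCre, 17790 to 21120 and 8784 to 11520 in CD11b low and 17790 to 21070 and 2983 to 5964 in CD11b high. Monocyte and tissue macrophage markers summed to 1399 to 1762 and 2921 to 3772 (CD11cCre), 1734 to 1740 and 4191 to 4707 (LyzMCre), 962 to 1335 and 4801 to 10490 (CD11b low) and 960 to 1335 and 7029 to 9594 (CD11b high). Neutrophil markers summed to 49.6 to 71.6 and 323 to 399 in CD11cCre (4 of 4 tested higher), 70.2 to 77.4 and 169.8 to 258 in LyzMCre and 44.9 to 73.1 and 125.8 to 267.7 in CD11b low (1 of 3 tested higher in each), and to 44.8 to 73.1 and 27.3 to 67.6 in CD11b high (1 of 3 lower), with Elane at 0 in all 4 comparisons. These sums move with the RNA results that follow, and their part in those results was not tested. In bulk samples, fewer cells of a type and less RNA per cell cannot be told apart.

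Of 21344 genes with a RefSeq position, 2254 (10.56%) had a lost unbound region in the gene or within 10 kb of it: 1925 had 1, 270 had 2 and 59 had 3 or more. Such genes were long (median 53820 bp against 17450 bp), and the share with a lost unbound region rose with the number of control regions near the gene, from 5.604% at 1 to 2 regions to 51.72% at 11 or more. Without control culture 1 the count of genes was 5813, and without control culture 2 it was 4179.

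A larger share of genes near lost unbound regions than of all genes was called lower in the chromatin-matched comparison, and a similar share as of genes with equally many open regions nearby. Of 1431 such genes tested, 235 were lower and 215 higher (16.4% and 15.0%), beside 12.6% and 14.6% of all 10262 genes tested. Their median log2 fold change was −0.04, against 0.02 over all genes tested. The count of lower genes fell to 154 without control library 2, when the share was 10.5%, beside 8.2% of all genes. Genes that also had a C/EBPβ-bound lost region within 10 kb were lower in 32.8% of 201, and those without one in 13.7% of 1230. Genes with a bound lost region and no unbound one were lower in 25.8% of 694. Genes with neither, but with a control region, were lower in 10.9% of 7991. These shares by bound lost region were not compared at equal numbers of control regions. With 1 to 2 control regions, 8.89% of genes with and 9.03% without a lost unbound region were lower. The shares were 12.6% and 11.2% at 3 to 5 control regions, 17.7% and 18.7% at 6 to 10, and 23.1% and 23.4% at 11 or more. Within these ranges the genes with and without a lost unbound region thus differed by at most a few percentage points and in both directions.

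In the CD11cCre comparison 111 of 1378 genes near lost unbound regions were lower (8.06%, beside 6.48% of all genes tested). There 183 were higher (13.3%, beside 10.3%). With 1 to 2 control regions, 6.9% of genes with and 5.92% without a lost unbound region were higher. The higher shares were 9.43% and 9.7% at 3 to 5, 13.8% and 15.1% at 6 to 10, and 20.9% and 21.7% at 11 or more. In the same steps the lower shares were 4.6% and 4.48%, 7.55% and 6.56%, 8.22% and 8.26%, and 9.65% and 8.26%. The lower count was 68 without control library 1, 71 without control library 3 and 188 without knockout library 4, and the share of all genes called moved with it (4.86%, 5.1% and 13.8%, beside 3.74%, 4.12% and 12.2% of all genes). In the LyzMCre comparison 18 of 1214 were lower (1.48%, beside 1.72%) and 48 higher (3.95%, beside 2.96%). With only 2 libraries a group these counts moved with each, as did the shares of all genes called. The lower count was 6 and 7 without control libraries 1 and 2 (0.485% and 0.537%, beside 0.698% and 0.751% of all genes) and 120 and 173 without knockout libraries 1 and 2 (9.26% and 14.3%, beside 9.12% and 13.5%). The higher count was 25 without control library 1 (2.02%, beside 1.71%) and 213 and 209 without knockout libraries 1 and 2 (16.4% and 17.2%, beside 11.1% and 17.7%). The CD11b low comparison called 104 of 1093 lower (9.52%, beside 8.08%) and 105 higher (9.61%, beside 9.16%). The CD11b high comparison called 158 of 1156 lower (13.7%, beside 11.3%) and 142 higher (12.3%, beside 11.0%). Both CD11b comparisons share the same control libraries. The lower shares were also read in the same steps of control regions, with and without a lost unbound region. In CD11b high they were 5.97% and 7.18%, 12.7% and 10.1%, 14.0% and 17.5%, and 16.7% and 20.7%. In CD11b low they were 5.08% and 5.75%, 7.97% and 7.06%, 9.54% and 12.3%, and 13.0% and 14.4%. The LyzMCre higher shares were 2.99% and 1.35%, 2.39% and 2.86%, 3.72% and 4.13%, and 7.04% and 5.86%. Closed chromatin nearby thus came with RNA calls in both directions in all 5 comparisons. Some of these genes also had a gained region, open in all 3 knockouts and in no control, within 10 kb. In the chromatin-matched comparison 17.5% of those with one were higher, against 13.5% of those without. The shares were 16.4% and 11.4% in CD11cCre and 4.98% and 3.32% in LyzMCre. They were 13.9% and 7.04% in CD11b low and 16.2% and 9.87% in CD11b high. The lower shares with and without a gained region were 17.2% and 16.0% (chromatin-matched), 7.42% and 8.43% (CD11cCre) and 1.73% and 1.33% (LyzMCre). They were 8.52% and 10.1% in CD11b low and 13.7% and 13.6% in CD11b high. Genes with a gained region and no lost unbound one were higher in 15.6%, 12.5%, 3.58%, 10.9% and 13.1%, in the same order of comparisons. Shares by gained region were not read in steps of control regions, and these differences were not tested.

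**Figure D3:**
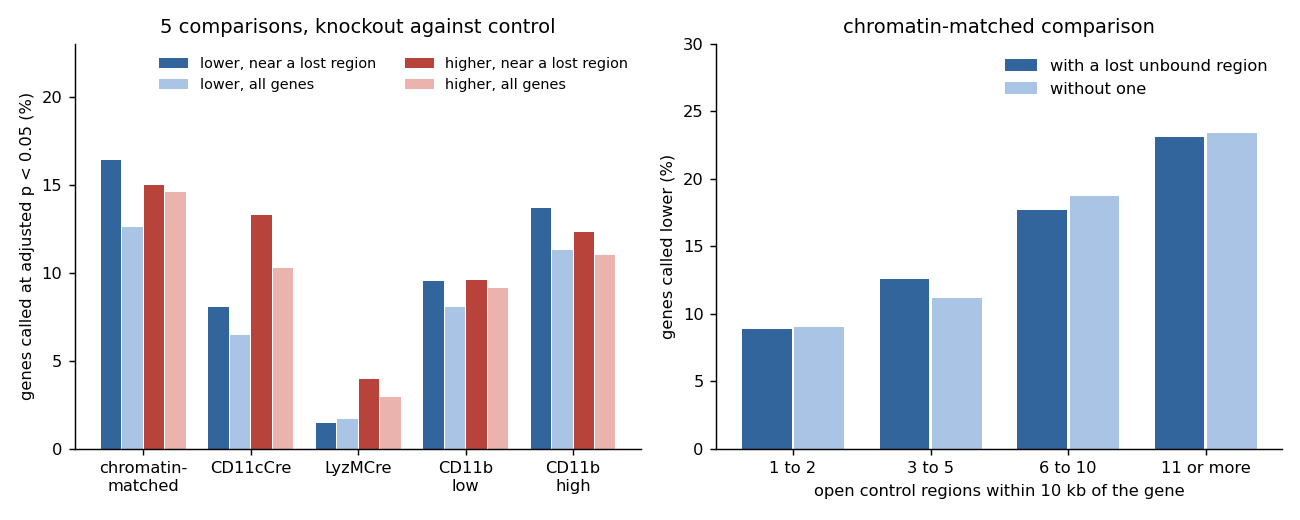
Left: percent of tested genes called lower or higher (y axis, from 0) in 5 knockout and control comparisons, for genes within 10 kb of a lost unbound region and for all genes. Right: percent called lower in the chromatin-matched comparison by number of control regions within 10 kb, with and without a lost unbound region, where paired bars lie close (8.89% and 9.03% at 1 to 2 regions).

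The 8 largest falls, Cebpb among them, were of genes with 1 or 2 lost unbound regions. Plcb1, a phospholipase C that acts downstream of G proteins, was 60.2, 58.7 and 51.4 CPM in the controls and 0, 0 and 1.94 CPM in the knockouts. Its 2 lost unbound regions lay 109605 and 477897 bp inside the gene, and it also had 2 bound lost regions. The groups did not overlap, and the log2 fold change was −6.30 ± 0.62 (SE, n = 3 each; edgeR adjusted p = 0.000159). Kcnn3, a calcium-activated potassium channel, was 172, 160 and 154 CPM in controls and 4.39, 5.52 and 3.23 CPM in knockouts. It fell by 5.22 ± 0.22 on the log2 scale (edgeR adjusted p = 1.86e-06), with 2 lost unbound regions in its body (chr3:89525853-89526261 and chr3:89534415-89534789) and no bound lost region. Prkar2b, a regulatory subunit of protein kinase A, was 161, 172 and 156 CPM against 5.85, 10.2 and 8.61 CPM, again without overlap (log2 fold change −4.32). Ttc39a (−4.96), Tcaf1, a regulator of the TRPM8 channel (−4.76), Perp, a desmosomal p53 target (−4.44), and Nup210, a nuclear pore protein (−3.38), each had 1 lost unbound region and passed the test, and the last 3 also had a bound lost region.

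The largest rises were from near 0. Bcl2, which blocks apoptosis, was 0, 0.368 and 0.183 CPM in the controls and 42.0, 64.5 and 51.2 CPM in the knockouts, with 1 lost unbound region 82022 bp inside the gene (chr1:106632010-106632268). Only 3 control counts stood against 661, a ratio of 215.6 with an exact 95% interval of 73.46 to 1048 that covers counting error only. Src, a tyrosine kinase, was 0.461, 1.29 and 0 CPM against 79.4, 105 and 94.3 CPM (log2 fold change 7.23 ± 0.47, SE, n = 3 each; edgeR adjusted p = 1.04e-05), with its lost unbound region 1466 bp past its start. Knockout libraries of both genes were all far above every control. Pmp22, whose promoter stretch is printed above, was 0.923, 2.58 and 1.1 CPM against 211, 119 and 208 CPM (log2 fold change 6.82). The same held without overlap for Slco3a1, an organic anion transporter (7.40), Cmklr1, the chemerin receptor (6.56), Rasgrp1, an activator of Ras (6.51), and Atp2a3, a calcium pump (6.18), each past the test. B4galt6, a glycolipid enzyme, had 1 control count against 536 in the knockouts, a ratio of 524.6 (93.75 to 20760). Thus loss of a nearby open region in culture stood beside a rise of RNA in these 8 genes. Of them, Slco3a1 and Cmklr1 also had 1 gained region each and Rasgrp1 had 2. B4galt6, Bcl2, Src, Pmp22 and Atp2a3 had none. Gained regions also lay near the 8 largest falls: 3 at Plcb1 and 1 each at Kcnn3, Ttc39a, Cebpb and Prkar2b. Tcaf1, Perp and Nup210 had none.

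**Figure D4:**
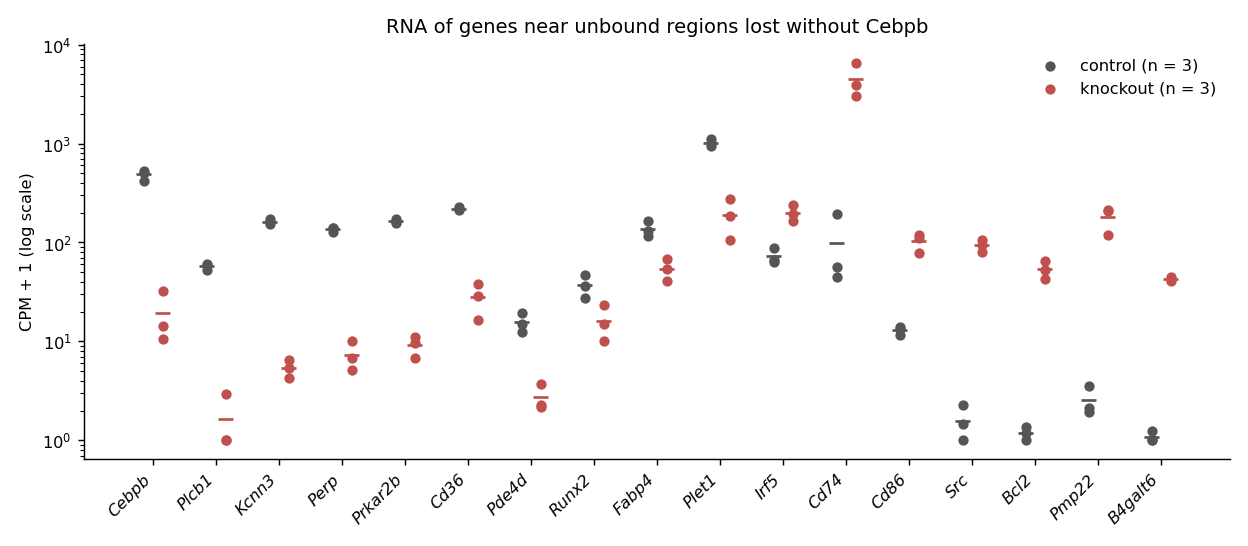
CPM plus 1 on a log scale (y axis) for 17 genes near lost unbound regions (x axis) in the chromatin-matched control and knockout libraries. Points are libraries (n = 3 a group) and short lines their means. Each gene has no overlap between groups, with Cebpb to Plet1 lower and Irf5 to B4galt6 higher in knockouts.

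Of 26 alveolar macrophage identity genes, 5 had a lost unbound region (19.2%, beside 10.56% of all genes). All 5 were lower in the chromatin-matched comparison, as were 19 of the whole list. The 5 were Cebpb, Perp, Plet1, Atp6v0d2 and Fabp4, and Perp and Atp6v0d2 also had 1 bound lost region each. Cebpb is the deleted gene, so its fall follows from the design, and at its region lost and closed DNA cannot be told apart. The count and share of the list include it. The list had a median of 4 control regions a gene, and 12.8% of all genes with 3 to 5 had a lost unbound region. Plet1, a surface protein of alveolar macrophages, was 954, 1006 and 1099 CPM in controls and 183, 273 and 104 CPM in knockouts, a log2 fold change of −2.45 ± 0.31 (SE, n = 3 each; edgeR adjusted p = 0.000479). Its region (chr9:50496644-50496948) lay 398 bp from a C/EBPβ peak. Fabp4, a fatty acid carrier, was 115, 165 and 129 CPM against 39.9, 52.9 and 66.7 CPM (−1.36), and Atp6v0d2, a proton pump subunit, had a log2 fold change of −1.24. In the CD11cCre comparison Plet1 and Fabp4 were higher in the knockouts, by 0.63 and 1.42 on the log2 scale, both passing the test. Perp (0.01) and Atp6v0d2 (−0.21) were not called there. So the RNA of Plet1 and Fabp4 went in opposite directions in 2 deletion models.

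Of 20 genes of lipid uptake and PPAR targets, 4 had a lost unbound region (20%, beside 10.56% of all genes). The list median was 4.5 control regions a gene. Cd36 and Fabp4 were lower, as were 9 of the 17 list genes tested (1 was higher). Cd36, a receptor for fatty acids and oxidised lipoproteins, was 215, 213 and 227 CPM in controls and 15.5, 27.6 and 37.5 CPM in knockouts (log2 fold change −3.02 ± 0.28, SE, n = 3 each; edgeR adjusted p = 6.39e-05). It also had a bound lost region. In the CD11cCre, LyzMCre and CD11b low comparisons its values of −0.42, −0.71 and −0.43 did not pass the test. Of 20 cholesterol synthesis genes, 15 were lower and 0 higher of 19 tested. Stard4 of that list, a sterol carrier, had a lost unbound region and was lower (−1.76). Srebf1 was the 1 of 18 cholesterol efflux genes with a lost unbound region (5.56%), and it was not called.

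Of 42 macrophage transcription regulators, 10 had a lost unbound region (23.8%, beside 10.56% of all genes), 15 regions in all. The list median was 5 control regions a gene, and 12.8% of all genes with 3 to 5 had a lost unbound region. Cebpb, Runx2 and Tfec were lower, Irf5 was higher and 6 were not called (Bach1, Cebpa, Cebpg, Hif1a, Klf2 and Mitf), where 8 of the 41 list genes tested were lower and 11 higher. These counts include Cebpb, the deleted gene, whose fall follows from the design. Runx2, a runt family factor, held one of the stronger regions (chr17:44811559-44812040, percentiles 95.42 and 75.72) and also had 2 bound lost regions. Its RNA was 35.5, 45.5 and 26.4 CPM in controls and 14.0, 22.4 and 9.04 CPM in knockouts, without overlap (−1.26 ± 0.33, SE, n = 3 each; edgeR adjusted p = 0.0181). The call was lost without control library 1, control library 2 or knockout library 1 (adjusted p 0.0535, 0.0845 and 0.0688), and in the other 4 comparisons its values, −0.18 to 0.23, did not pass. Tfec, a relative of Mitf, fell by 1.57 on the log2 scale and also had 1 bound lost region. Irf5 was 61.8, 65.0 and 87.5 CPM against 166, 192 and 237 CPM, a rise of 1.47 ± 0.20 (edgeR adjusted p = 0.000556). The region at its own start was lost in the knockout cultures, and 1 gained region lay within 10 kb. Klf2, a quiescence factor, had 2 lost unbound regions and a log2 fold change of −0.61 (edgeR adjusted p 0.163). In the chromatin-matched comparison it passed only without knockout library 3 (−0.88, edgeR adjusted p 0.0303). Klf2 was called lower in CD11cCre (−1.11), CD11b low (−0.93) and CD11b high (−1.24), and was not called in LyzMCre (−0.27).

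None of the 21 monocyte and tissue macrophage markers had a lost unbound region, beside 10.56% of all genes, a share at which so short a list would hold few. Of the 17 tested, 10 were higher and 2 lower. Genes of antigen presentation with one were higher: Cd74, which chaperones MHC class II molecules, was 44.1, 55.8 and 192 CPM in controls and 6533, 3048 and 3940 CPM in knockouts (log2 fold change 5.53), and Cd86, a co-stimulatory ligand, rose by 3.07. In that list 2 of 12 had a lost unbound region (16.7%), and 11 of 12 tested were higher. Of the genes named here, Cd74 and Ccl4 also had 1 gained region each, and Cd86, Cxcl10, Oas2 and Ccl12 had none. Of 24 interferon genes, 23 were higher in these cells, which had no IFNα treatment, among them Cxcl10 and Oas2 with a lost unbound region. Oas2, a sensor of double-stranded RNA, rose by 4.40, and the chemokine gene Cxcl10 by 4.34. Ccl4 and Ccl12, chemokines for monocytes, were higher by 4.45 and 5.78, in a cytokine list with 12 of 21 tested higher and 1 lower. Ccl4 missed the threshold without control library 1, 2 or 3 or knockout library 3 (adjusted p 0.0992, 0.0532, 0.0659 and 0.0602), and Ccl12 without control library 1 or 2 (0.0649 and 0.0645). Both missed it with no filter on low counts (adjusted p 0.077 and 0.0618). In the other comparisons Ccl4 was called only in CD11cCre (1.43), with 1.21 in LyzMCre, 0.35 in CD11b low and −0.46 in CD11b high. Oas2 was called higher in CD11b high (2.81), not called in LyzMCre (−1.83) and not tested in CD11cCre or CD11b low. Cxcl10 was tested only in CD11cCre, where it was not called (1.72), and Ccl12 in none of them.

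Of 15 lipid-associated macrophage genes, Gpnmb, a membrane glycoprotein (2.11), and Lgals3, a galectin (1.1), were higher, and Cd9 (−0.91) was lower. These were the 3 with a lost unbound region (20%, beside 10.56% of all genes), and of the whole list 9 were higher and 2 lower. Cd9 lost the region at its start and also had 2 bound lost regions. Of the genes in this paragraph, Lgals3, Lamp1, Csf2rb, Scgb1a1 and Acta2 also had a bound lost region. Gained regions numbered 2 at Lgals3 and 1 each at Cd9 and Aurkb. Lamp1, whose stretch with 4 E-boxes is printed above, rose by 0.79 ± 0.15 on the log2 scale (SE, n = 3 each; edgeR adjusted p = 0.00303), in a lysosome list with 12 of 25 higher and 4 lower. Of 17 GM-CSF pathway genes 17.65% had a lost unbound region, and 7 were higher and 2 lower. Cish, a feedback inhibitor, rose by 1.05, and Csf2rb, the shared receptor chain, had a log2 fold change of −0.55. The call of Csf2rb was lost without any 1 of control libraries 1, 2 and 3 or knockout library 1 (adjusted p 0.0603, 0.0843, 0.136 and 0.0959). Of 32 cell cycle genes, Aurkb (−2.04) and Cenpa (−0.65) had a lost unbound region (6.25%) and were lower, as were 24 of the 31 tested. Cenpa missed the threshold without control library 1, 2 or 3 or knockout library 1 (adjusted p 0.122, 0.0858, 0.0907 and 0.0508). Of the marker lists, Camp, Ccr7, Scgb1a1 and Acta2 had a lost unbound region, 1 gene a list. Camp was at 0 in all 3 controls and at 0.418, 1.45 and 0 CPM in the knockouts, too low to test. Scgb1a1, a club cell protein, was lower (−2.39), and its call was lost without control library 1 or 2 or knockout library 1 (adjusted p 0.0938, 0.0726 and 0.0647).

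The genes with the most lost unbound regions were very long. Lpp, an adhesion protein, Magi2, a scaffold protein, and Pde4d, which breaks down cyclic AMP, had 6 each. Pde4d was 18.2, 14.2 and 11.4 CPM in controls and 2.72, 1.16 and 1.29 CPM in knockouts (log2 fold change −3.02 ± 0.39, SE, n = 3 each; edgeR adjusted p = 0.000377). Pde4d and Lpp each had 61 control regions in all. Lpp (−0.50) missed the threshold without any 1 library other than knockout library 3 (adjusted p 0.0748 to 0.179), and Magi2 (0.66) was not called. Of those with 5, Kcnip4, a potassium channel partner, had 104 control counts against 2 (a ratio of 53.13, with an interval of 14.34 to 444.6) and Nav2, a neuron navigator protein, was lower by a log2 fold change of −1.65, a call lost without control library 1 or knockout library 1 (adjusted p 0.07 and 0.062). Dlg2 and Dlgap1, synaptic scaffold genes, had 5 and 4 regions and no count in any of the 6 libraries, and Rbfox1 (5 regions), a splicing factor, reached at most 0.367 CPM. Cacna1d, a calcium channel gene, and Arid1b, a chromatin remodelling subunit, had 4 each; Arid1b was not called (−0.23), and Cacna1d, not tested, was 0, 0.184 and 0 CPM against 8.57, 1.16 and 6.67 CPM. Regions were thus lost in genes with and without measured RNA. Bound lost regions also lay within 10 kb of some of these genes. They numbered 3 at Lpp, Kcnip4 and Dlgap1, 2 at Magi2, and 1 at Pde4d, Nav2 and Arid1b. Dlg2, Rbfox1 and Cacna1d had none.

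At promoters, 60 genes of the count table had a window overlapped by a lost unbound region; 31 were tested, and 8 were lower and 8 higher (25.8% each, beside 12.6% and 14.6% of all genes tested; the difference was not tested). Among these, chosen after their values were seen, Unc119, a lipid-binding trafficking protein, was 507, 476 and 415 CPM in controls and 84.4, 131 and 47.4 CPM in knockouts, a fall of 2.41 on the log2 scale. Mapkapk2, a kinase downstream of p38, was 217, 222 and 260 CPM against 395, 315 and 462 CPM, a rise of 0.75. Neither gene had overlapping groups. Il23r had no count in any of the 6 libraries, and Dio2 was above 0 in 1 library of each group (0.367 and 12.9 CPM). At promoters too, a lost region came beside lower, higher and absent RNA.

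The 4 sets with separate libraries (chromatin-matched, CD11cCre, LyzMCre and CD11b low) were read side by side. Of genes near lost unbound regions called lower in the chromatin-matched set, 28.9% of those tested were also called lower in CD11cCre (66 of 228, with 12 called higher), 6.73% in LyzMCre and 40.8% in CD11b low. Over all genes called lower the shares were 27.6%, 9.61% and 43.2%. For genes called higher, the shares were 51.2%, 22.1% and 50.7%, beside 40.0%, 16.5% and 44.9% over all genes called higher. In all 4 sets, 11 of 235 were called lower (4.68%, beside 6.39% of all genes called lower) and 28 of 215 higher (13.0%, beside 10.2%). None of these differences between shares was tested.

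The 11 genes lower in all 4 sets were Plcb1, Kcnn3, Cebpb (the deleted gene), Igsf3, Prkar2b, Nup210, Abcd2, B3glct, Ppp1r12b, Ptpn12 and Il16. Abcd2, a peroxisomal transporter of very long chain fatty acids, had log2 fold changes of −3.18, −0.84, −1.41 and −1.50 in the chromatin-matched, CD11cCre, LyzMCre and CD11b low sets. Ptpn12, a tyrosine phosphatase of the cytoskeleton, had −2.04, −0.71, −1.12 and −1.40. Of these 11, Plcb1 and Nup210 also had a C/EBPβ-bound lost region and the other 9 did not. The 28 higher in all 4 included Cd74, Cd86, Igf1, Ephx1, Bcl2, Src, Foxp1, Tcf4 and Gpx3. Igf1, a growth factor made by tissue macrophages, rose by 1.55, 2.56, 2.90 and 3.23 in the same order, with its lost unbound region 529 bp upstream of a start. Ephx1 rose by 4.60, 3.72, 4.07 and 3.77; it lay beside one of the 20 strongest lost unbound regions. These genes were picked for being called in 1 direction in 4 separate sets, in which the LyzMCre calls rest on 2 libraries a group.

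**Figure D5:**
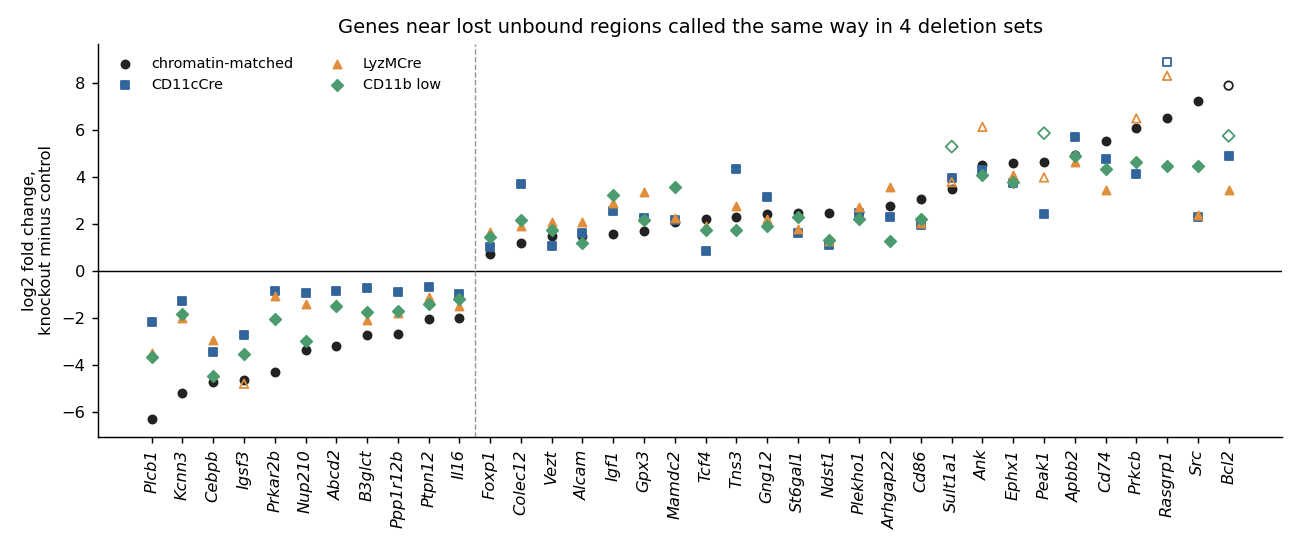
Log2 fold change, knockout minus control (y axis), of genes near lost unbound regions called in the same direction in 4 sets with separate libraries (x axis: 11 genes lower, left of the dashed line, and most of the higher ones). Open symbols mark values where 1 group had 3 counts or fewer, whose size is uncertain. Ephx1 lies between 3.72 and 4.60 in all 4 sets.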

How the data were processed

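Open chromatin of 5 cultures, C/EBPβ binding in 2 samples and RNA of 29 libraries were taken from the deposited files, and groups from the sample labels. The regions and the 18 gene lists were chosen with earlier results of these data known. Per the submitters' processing notes, BWA 0.7.17, Bowtie2, MACS2 2.2.7.1, STAR 2.6.1a and featureCounts 1.6.3 were used, with the builds GRCm38 and mm10. The deposited peak lists give for each peak a score, a fold over local background (a ratio) and −log10 p and −log10 q values of the authors' peak caller. Peaks were listed per sample, and the lowest −log10 q was 1.338 to 1.423 in ATAC lists and 5.0 and 5.023 in ChIP lists. Strength was compared only as a percentile within a list, and folds are the authors' own values.

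RNA was sequenced from the 3′ end with MARS-seq primers, and the authors' tables hold whole counts per gene. The labels do not tell if reads with the same molecule barcode were counted once, and a count may thus be a read or a molecule. The count tables held 49 further sample columns that were not used here. Of 22050 genes, 20574 were placed by symbol and 770 by synonym with RefSeq GRCm38.p6, and 706 were not placed. Gene starts of chromosome 18 were not used here.

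Each comparison was fitted on its own libraries in edgeR 4.0.16 (R 4.3.3) with TMM, filterByExpr (minimum count 10) and robust quasi-likelihood tests, and a gene was called at a Benjamini-Hochberg adjusted p under 0.05 over all genes tested. Values are CPM and folds are log2. With 2 control and 3 knockout cultures an exact permutation test cannot go below p = 0.1, so the peak lists were described without a test. A gene was linked to a region in its body or within 10 kb. Ratios with 3 or fewer counts in 1 group have exact (Clopper-Pearson) 95% intervals, which cover counting error only, as does the floor of 3 counts. Merging matched bedtools 2.31.1 on all 129652 regions, and the tests were checked on simulated data.

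The text names the 20 strongest regions and the 5 nearest to the calling limit. Genes named are Cebpb, the 10 with most lost unbound regions, the 8 largest falls and 8 largest rises among genes called in the chromatin-matched comparison (mean of at least 20 CPM in 1 group, no overlap) and list genes with such a region that were called or held at least 2. Predicted and sex-linked genes were not named, apart from the nearest gene of a region, and a few other genes the rule names are not reported here. Genes outside this rule are said to be chosen after their values were seen, or come from the overlap of 4 sets. Alternatives were other peak and binding limits, link distances, DESeq2 1.42.0, no count filter, the replicate number as a block, and leaving out each library. Lists were as printed: alveolar macrophage identity, lipid uptake, cholesterol efflux, cholesterol synthesis, transcription regulators, monocyte markers, MHC class II, lipid-associated macrophages, GM-CSF targets, cytokines, lysosome, interferon response, cell cycle and 5 lists of other cell types.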

Additional observations from a re-analysis of the deposited data

Results flagged for a closer look

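Among 149 groups of 4 libraries looked at for named genes near lost unbound regions, 11 had a library whose gap to its nearest neighbour, as a share of the group's range, passed Dixon's 95% limit, which chance passes in about 1 in 20 groups. In CD11b low knockouts the highest library was 80.2 CPM for Kcnn3 and 1747 CPM for Gpnmb, and the lowest was 4.249 CPM for Oas2. In CD11b high knockouts the lowest was 69.62 CPM for Lpp, and the highest was 29.24 CPM for Prkar2b and 18.1 CPM for Aurkb. In CD11cCre knockouts Atp6v0d2 had a lowest library of 947.4 CPM and Cenpa a highest of 43.3 CPM. In the Cebpb +/+ libraries of the CD11b sets the highest was 1160 CPM for Plet1 and 4913 CPM for Lgals3, and the lowest was 33.62 CPM for Runx2.

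Plet1 and Fabp4 moved in opposite directions in the chromatin-matched, CD11cCre and CD11b high sets, and within each of these 3 the knockout libraries did not overlap the controls. Plet1 had a log2 fold change of −2.45 in the chromatin-matched, 0.63 in the CD11cCre and −2.08 in the CD11b high comparison. Fabp4 had −1.36, 1.42 and −1.80 in the same order. The difference between sets was not tested.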

How the results depend on the processing

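No fold change of the 48 named genes changed sign under the alternatives run. The order of linked and all genes did: the LyzMCre lower share, below all genes, was above with no count filter (2.44% and 2.26%), the nearest gene alone (1.89% and 1.72%) and without either knockout library, where the higher share fell below all genes without knockout library 2. The chromatin-matched higher share was below all genes without knockout library 3 (18.4% and 19%) and with control peaks of at least 5 (14.4% and 14.6%). More chromatin-matched genes were higher than lower without control library 1 (171 and 159), control library 2 (162 and 154) or knockout library 1 (179 and 178) and at 50 kb. In CD11b high the same held with DESeq2 (186 and 178), no count filter (200 and 198) or without knockout library 3 (205 and 191), and without knockout library 2 both were 116. The count of lost unbound regions ranged from 3610 to 9954 when 1 list was left out, the share of unbound regions lost from 7.44% to 15.4%, the share within 1 kb of a start from 5.84% to 8.36% and linked genes from 2340 to 5813. The share lost was 8.83% with a −log10 q of at least 5 in every list, 6.19% with that limit in controls only and 8.49% with 50% overlap. The share near a start was 8.09% at 2 kb, 5.08% with control peaks of at least 5 and 9.28% with 50% overlap. Links of 50 kb gave 4732 genes, of which 404 were lower and 431 higher in the chromatin-matched (14.0% and 15.0%, beside 12.6% and 14.6% of all genes), 192 and 344 in the CD11cCre (6.89% and 12.3%, beside 6.48% and 10.3%), 40 and 83 in the LyzMCre (1.63% and 3.37%, beside 1.72% and 2.96%), 187 and 207 in the CD11b low (8.48% and 9.39%, beside 8.08% and 9.16%) and 290 and 270 in the CD11b high comparison (12.4% and 11.5%, beside 11.3% and 11.0%). With both control peaks at 5 or more, lower genes numbered 73 (CD11cCre), 10 (LyzMCre) and 67 (CD11b low). With no filter on low counts LyzMCre gave 42 lower and 94 higher, and CD11b low 170 higher. Leaving out each library gave 154 to 338 lower and 162 to 267 higher (chromatin-matched), 68 to 188 and 132 to 239 (CD11cCre), 6 to 173 and 25 to 213 (LyzMCre), 76 to 106 and 83 to 122 (CD11b low) and 116 to 191 and 116 to 205 (CD11b high). Where 1 LyzMCre library remained in a group, it was assumed to vary like the other group. The cause of these shifts was not tested.

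Replicate numbers pair no samples by the labels, and same-numbered samples did not all correlate above 0.1. With the replicate block, lower genes were 178 in CD11cCre (12.9%, beside 11.9% of all genes), 227 in the chromatin-matched and 27 in the LyzMCre comparison, and of 48 named genes 5 missed the threshold (Lpp, Ccl4, Scgb1a1, Cenpa and Csf2rb). Crossed numbers in LyzMCre, an alternative chosen after seeing the data, gave 39 lower and 83 higher. DESeq2 gave the same side of the threshold for all 48, and with no count filter 4 missed it. Depth limits low genes: 3 counts stood for 0.559 to 0.788 CPM in chromatin-matched libraries.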
